A study of Mus musculus with 12 samples.

Results

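Lysosomal enzymes and membrane proteins were followed in the piriform cortex, the part of the cortex that receives most olfactory input, through 31 genes picked by symbol, of 48795 in the count table. They comprise 9 proteases, 7 glycosidases, 5 genes of lipid breakdown, 3 genes for sterol transfer and progranulin, 5 membrane proteins and 2 transcription factors. All 31 had a row in the table and all 31 passed the expression filter that left 17725 genes for testing. RNA-seq read counts came from 12 mice aged 12 months on a C57BL/6 background. They were 6 heterozygous (Het) knock-ins (KI) of the Q140 allele and 6 wild types, each genotype being made up of 3 females and 3 males. Q140 is an Htt allele with an expanded CAG repeat, used to model Huntington's disease, and every Q140 animal also kept a normal Htt allele. The repeat length of each animal is not given in the sources used here. Each library is a separate animal, named here by genotype and number.

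Lysosomes are acidic vesicles in which hydrolases break down proteins, glycans and lipids delivered by endocytosis and autophagy. Most soluble enzymes carry a mannose 6-phosphate tag that sorts them to the lysosome, and membrane proteins such as LAMP1 and LAMP2 line its wall. The related factors TFEB and TFE3 enter the nucleus when the kinase complex mTORC1 is inactive, and activate many of these genes through a promoter element, CLEAR, whose core is CACGTG. In brain, neurons hold many lysosomes, and microglia are rich in several cathepsins, among them cathepsin S. Inherited loss of many of the enzymes causes storage disease with damage to neurons.

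Because many lysosomal genes carry a known promoter element, the 250 bases before each RefSeq start site (GRCm38.p6) were searched for CACGTG, which reads the same on both strands, and for TCATGTG on both strands, an element of the same factor family called the M-box. By their letters, a copy of one motif cannot overlap a copy of the other. RefSeq entries were found for 27 of the 31 genes, and not for Asah1, Ctsb, Ctsh and Npc1. CACGTG stood in 10 of the 27 (Ctsa, Ctsd, Ctsf, Ctsl, Gaa, Gla, Glb1, Lamp1, Cln3 and Mcoln1), and in 6.86% of the 27025 genes with an entry. TCATGTG stood in 3 of the 27 (Gla, Grn and Scarb2), and in 3.72% of all genes. Of the 7 genes that later passed the genotype test, 2 held CACGTG (Gaa and Lamp1) and 2 others TCATGTG (Grn and Scarb2). For 5 genes the promoter is printed 5′ to 3′ on the plus strand with CACGTG in capitals, cut where an annotated exon begins. These genes were chosen after the matches and the expression values were seen: Lamp1 has the most matches, Gaa and Ctss passed the genotype test with and without a match, and Glb1 and Mcoln1 hold the motif but did not pass.
Lamp1, chr8:13158911-13159160: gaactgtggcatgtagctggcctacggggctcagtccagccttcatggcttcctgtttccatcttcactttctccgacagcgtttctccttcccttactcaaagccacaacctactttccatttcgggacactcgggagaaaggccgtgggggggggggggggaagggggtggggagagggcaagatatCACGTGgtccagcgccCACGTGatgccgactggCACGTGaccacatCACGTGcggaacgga
Gaa, chr11:119267713-119267886: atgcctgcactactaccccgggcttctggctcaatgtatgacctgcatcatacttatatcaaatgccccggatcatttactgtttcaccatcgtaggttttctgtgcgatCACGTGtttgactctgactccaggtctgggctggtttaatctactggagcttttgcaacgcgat
Glb1, chr9:114400828-114401075: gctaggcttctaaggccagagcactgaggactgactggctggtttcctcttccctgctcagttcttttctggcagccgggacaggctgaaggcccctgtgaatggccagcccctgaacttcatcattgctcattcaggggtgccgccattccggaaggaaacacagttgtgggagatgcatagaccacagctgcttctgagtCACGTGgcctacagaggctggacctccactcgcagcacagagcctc
Mcoln1, chr8:3500269-3500456: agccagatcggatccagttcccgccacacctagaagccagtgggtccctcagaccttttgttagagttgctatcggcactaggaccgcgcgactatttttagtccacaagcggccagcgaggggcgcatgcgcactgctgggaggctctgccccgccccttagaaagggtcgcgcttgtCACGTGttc
Ctss, chr3:95526536-95526785: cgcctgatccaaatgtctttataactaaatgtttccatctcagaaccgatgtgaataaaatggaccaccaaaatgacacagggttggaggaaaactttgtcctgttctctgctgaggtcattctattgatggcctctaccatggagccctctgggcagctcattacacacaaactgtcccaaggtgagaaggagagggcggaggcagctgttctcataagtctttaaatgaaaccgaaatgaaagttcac
Lamp1 held 4 copies, which begin 61, 45, 28 and 15 bases before the start site. The copy in Gaa begins 140 bases before it and that in Glb1 48 bases. Mcoln1 has copies at 71 and 45 bases, the second of which lies past the printed end. A match describes the letters of the window, not binding.

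Total counts per animal ranged from 19587208 to 35198602. TMM factors, which scale each library for its composition, were 0.970 to 0.996 in wild types and 0.998 to 1.035 in Q140. Levels are given as CPM, counts per unit of library size. The level of Htt was 195.6 ± 8.15 CPM in wild types against 151 ± 8.18 in Q140 animals (SD, n = 6 each), and sex-linked transcripts matched the labelled sex in 12 of 12 animals. Each of the 66 pairs of libraries differed by more than counting noise, with a mean chi-square per gene of at least 7.34. Markers of cortical excitatory neurons were present, led by Slc17a7, the vesicular glutamate transporter VGLUT1, at 1822 ± 104 CPM in wild types and 1437 ± 127 in Q140.

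In wild type cortex the 31 genes ranged from low to among the highest of all genes tested. On the per-length FPKM scale (counts scaled by gene length and library total), Psap was highest, at 539 and above 99.88% of tested genes. Its product, prosaposin, is cut into activators of sphingolipid breakdown. Lamp1 at 115, Ctsb at 81.4 and Ctsd at 70.3 followed, and Gaa and Ctss were level with each other at 47.3. At the low end stood Cln3 at 2.40, Ctsh at 2.23 and Tfeb at 1.36 FPKM, the last above 26.7% of tested genes. The spread among the 6 wild types was a coefficient of variation of 2.57% for Ctsd, the steadiest, and 21.6% for Ctsh, the most variable, with 16.7% for Tfeb. Reads per gene over the 12 animals ran from 3134 for Tfeb to 547107 for Psap.

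In Q140 cortex a minority of the lysosomal genes rose, each modestly. Gaa, Ctss, Ctsz, Grn, Npc2, Scarb2 and Lamp1 rose, 7 of 31, none fell, and 24 did not pass. By DESeq2 and by limma, too, none of the 31 fell. Among all genes tested 4.5% rose and 6.69% fell at the same threshold, an adjusted p of 0.05; these were 797 and 1185 genes. By limma on log2 FPKM, an alternative in which the unit, the test and the filter (20363 genes) all differ, they were 1366 and 661. Among the 11117 genes within the range of wild type CPM that the 31 span, 5.06% rose and 8.57% fell. Fold changes were above 0 in 25 of the 31, against 51.3% of all genes, and their median log2 fold change was 0.11, against 0.0045 over all genes. By limma on FPKM 28 were above 0, as Glb1, Smpd1 and Tfe3 moved to just above 0. There the median over all genes was also higher, 0.0476 with a pseudocount of 0.1 and 0.0314 with 1. In the comparison as reported, 17 of the 31 were higher at an unadjusted p of 0.05 (12.3% of all genes) and 1, Asah1, was lower (14.3%). The rises of those that passed lay between 10.2% and 27.3%. In tissue RNA of this kind, a change in the number of cells of a type and a change in RNA per cell cannot be told apart. The calls depend on the animals, the terms and the test. With the name prefix of the animals as a term 0 of the 31 passed, and without wild types 3 and 6 together 2 did. By limma on FPKM 13 passed, and by limma voom on the counts 11 did. Shares of all genes that rose moved too, to 0.186% with the prefix and 1.66% without wild types 3 and 6. By limma on FPKM they were 6.71% and 6.69% with pseudocounts of 0.1 and 1, and by voom 5.99%.

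**Figure D1:**
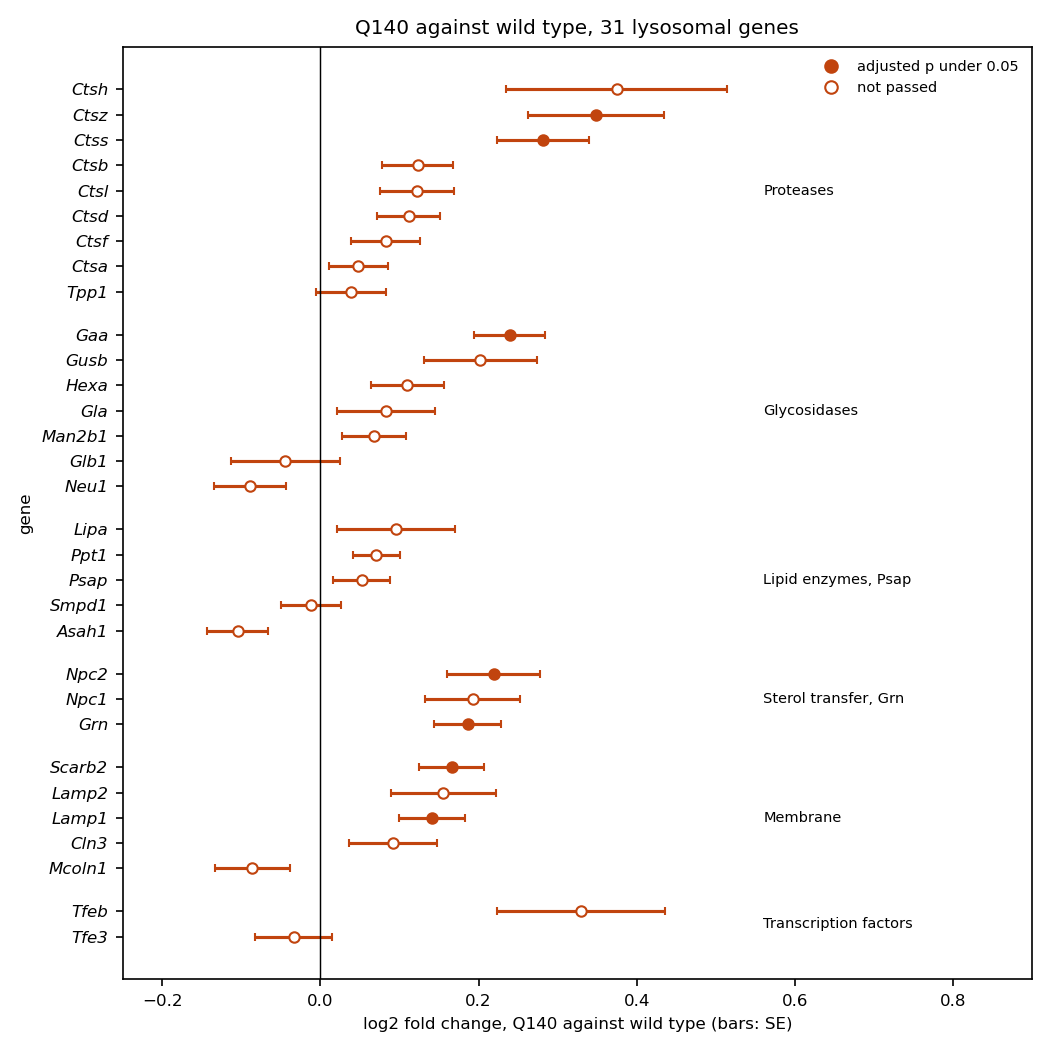
Log2 fold change of Q140 against wild type for the 31 genes by role, with bars for the SE; filled points passed at an adjusted p of 0.05. The 7 filled points lie between 0.14 and 0.35, and 6 of the 31 points lie below 0.

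Of the 9 proteases, cathepsins S and Z rose, and all 9 had fold changes above 0 (median 0.12). Ctss encodes cathepsin S, a cysteine protease that microglia use in antigen processing (chr3:95526786-95556403, GRCm38, protein coding). Its level in wild types was 57.7 CPM at the lowest, 65.9 at the median and 71.4 at the highest, and in Q140 68.9, 80.1 and 84.9. The groups overlapped by 1 animal each: 5 Q140 animals exceeded every wild type, while Q140 5 lay below wild type 4. The log2 fold change was 0.28 (SE 0.0580, adjusted p = 0.00766). Ctsz, for the carboxypeptidase cathepsin Z (chr2:174427493-174439039), ran from 26.5 through a median of 30.8 to 33.6 CPM in wild types and from 31.4 through 38.7 to 44.1 in Q140. Again Q140 5 was the only Q140 animal inside the wild type range, and the log2 fold change was 0.35 (SE 0.0860, adjusted p = 0.0198).

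The other 7 proteases did not pass. Ctsh, an aminopeptidase, had the largest fold change of the 31 but also the widest spread: 7.15, 9.96 and 13.3 CPM (lowest, median, highest) in wild types against 9.83, 12.9 and 16.5 in Q140, log2 fold change 0.37 (SE 0.140, adjusted p = 0.102). Cathepsins B, L and D, the main broad endopeptidases of the lysosome, gave closely similar values, 0.12 (SE 0.0448) for Ctsb, 0.12 (SE 0.0468) for Ctsl and 0.11 (SE 0.0400) for Ctsd, with adjusted p from 0.0906 to 0.113. Ctsd was 163.9, 167 and 176 CPM in wild types and 164.9, 184 and 191 in Q140: 5 Q140 animals lay above all wild types and Q140 5 among the lowest. Ctsf, a cysteine protease, Ctsa, the protective protein of the sialidase complex, and Tpp1, a tripeptidase lost in a childhood neuronal storage disease, lay between 0.039 and 0.082 (adjusted p from 0.247 to 0.620).

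Among the 7 glycosidases Gaa alone rose, by 18.1%. Gaa encodes acid alpha-glucosidase, which releases glucose from glycogen in the lysosome and is lost in Pompe disease (chr11:119267887-119285454, protein coding). Wild types held 215.7 CPM at the lowest, 227 at the median and 251 at the highest, and Q140 animals 259.5, 264.5 and 297. It was the one gene of the 31 whose groups did not overlap, all 6 Q140 animals lying above all 6 wild types; 1.88% of all genes were separated in that direction. Its mean was 229.9 ± 12.4 CPM in wild types and 271 ± 15.2 in Q140 (SD, n = 6 each). On the log2 scale the fold change was 0.24 (SE 0.0446, adjusted p = 0.00428).

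The remaining glycosidases did not move as 1 group. Gusb, beta-glucuronidase, was 12.8 ± 1.40 CPM in wild types and 14.7 ± 1.07 in Q140 (log2 fold change 0.20, SE 0.0719, adjusted p = 0.0877). Hexa, the alpha subunit of beta-hexosaminidase lost in Tay-Sachs disease, was at 0.11 (SE 0.0465, adjusted p = 0.148), with 5 Q140 animals above every wild type and Q140 5, at 45.5 CPM, inside their range. Gla, alpha-galactosidase A of Fabry disease, and Man2b1, lysosomal alpha-mannosidase, were at 0.083 and 0.068. Glb1, beta-galactosidase, and Neu1, the sialidase that works in a complex with it and with cathepsin A, were below 0, at -0.044 (SE 0.0686) and -0.089 (SE 0.0457, adjusted p = 0.233). No Q140 animal exceeded the wild type mean of Neu1.

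None of the 5 genes of lipid breakdown passed in either direction. Psap, the most abundant of the 31, was 1438, 1505 and 1568 CPM in wild types and 1524, 1560 and 1591 in Q140, a log2 fold change of 0.052 (SE 0.0360) with a 95% interval from -0.025 to 0.13. Ppt1, which removes palmitate from proteins, was at 0.071 (SE 0.0300, adjusted p = 0.149), and Lipa, the acid lipase that frees cholesterol from its esters, at 0.095 (SE 0.0747). Asah1, acid ceramidase, had the lowest fold change of the 31. It ran from 57.5 through 59.4 to 61.3 CPM in wild types and from 50.7 through 56.1 to 57.7 in Q140, so that only the highest Q140 animal, Q140 5, reached into the wild type range. The log2 fold change was -0.10 (SE 0.0383, adjusted p = 0.0969). Smpd1, acid sphingomyelinase, which makes the ceramide that acid ceramidase cleaves, stayed near 0, at -0.012 (SE 0.0379), with an interval from -0.093 to 0.069.

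Npc2 and Grn rose, while Npc1 had a similar fold change but did not pass. NPC2 is a soluble protein that hands cholesterol to NPC1, a membrane protein, for export from the lysosome. Npc2 (chr12:84754562-84773152) ran from 46.8 through 49.7 to 55.3 CPM in wild types and from 52.3 through 58.6 to 68.5 in Q140. Wild types 4 and 5 lay above the lowest Q140 animal, number 4, and the highest value was that of Q140 3. The log2 fold change was 0.22 (SE 0.0585, adjusted p = 0.0285). Npc1 was 80.6, 93.6 and 103 CPM in wild types and 95.2, 106 and 113 in Q140, log2 fold change 0.19 (SE 0.0598, adjusted p = 0.0529). Grn, for progranulin, a secreted protein cut into granulins in the lysosome, whose loss causes frontotemporal dementia, lies at chr11:102430315-102437048. Its values were 54.0, 57.3 and 61.8 CPM in wild types against 61.7, 65.8 and 71.0 in Q140, so the groups met only where Q140 5 and wild type 4 came to nearly the same level. The log2 fold change was 0.19 (SE 0.0424, adjusted p = 0.0132).

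Lamp1 and Scarb2 rose among the 5 membrane genes. Scarb2 encodes LIMP-2, the receptor that carries glucocerebrosidase to the lysosome (chr5:92441314-92506833). Wild types ran from 130 through 146 to 158 CPM and Q140 animals from 154 through 162 to 168. Wild type 4 alone exceeded the lowest Q140 animal, and the log2 fold change was 0.17 (SE 0.0415, adjusted p = 0.0214). Lamp1 (chr8:13159161-13175338), whose promoter holds the 4 CACGTG copies printed above, ran from 289 through 315 to 337 CPM in wild types and from 321 through 343 to 371.5 in Q140. All 3 wild type males lay above Q140 5, and the log2 fold change, 0.14 (SE 0.0419, adjusted p = 0.0450), was close to the threshold.

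The other 3 membrane genes did not pass. Lamp2, needed for the fusion of autophagosomes with lysosomes, was at 0.16 (SE 0.0666, adjusted p = 0.152); its highest wild type, number 4 at 93.8 CPM, lay above all 6 Q140 animals. Cln3, mutated in juvenile Batten disease, was at 0.092 (SE 0.0556). Mcoln1, the calcium channel TRPML1, was at -0.086 (SE 0.0472, adjusted p = 0.266). The 3 Q140 females held 66.6 to 70.5 CPM of it, below all wild types, which began at 75.7. So did 1 Q140 male, Q140 5, at 71.2, while Q140 3 and Q140 6 had 80.7 and 84.2.

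Neither of the 2 transcription factors passed. Tfeb was 6.36, 7.76 and 9.37 CPM in wild types and 8.38, 9.70 and 11.7 in Q140, giving 0.33 as log2 fold change (SE 0.106, adjusted p = 0.0613), higher than the wild type mean in 6 of 6 Q140 animals. Tfe3 was 38.8, 44.4 and 44.9 against 39.1, 41.7 and 46.7 CPM, log2 fold change -0.034 (SE 0.0489), with an interval from -0.14 to 0.071. Both factors act after transport into the nucleus, which RNA levels do not measure.

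**Figure D2:**
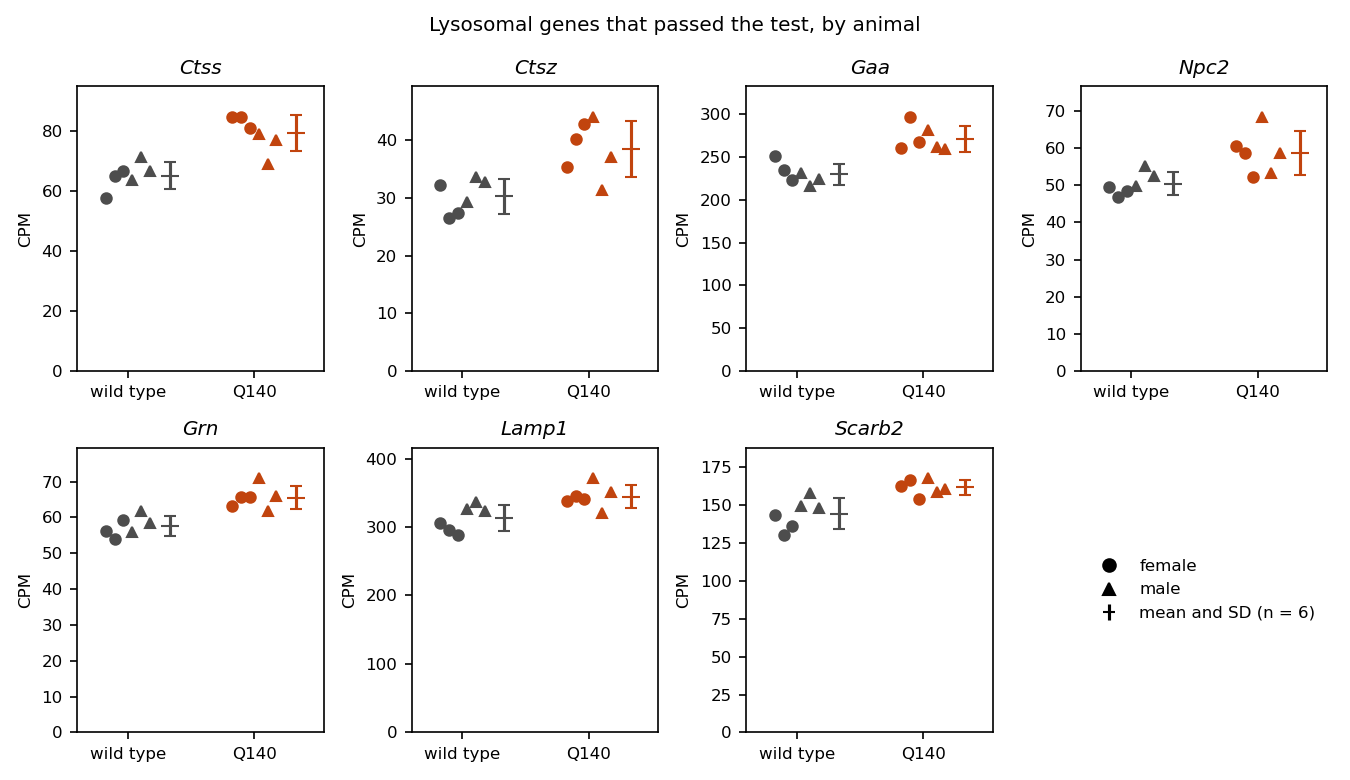
CPM of the 7 genes that passed, by animal, with wild types in grey and Q140 in red, circles for females and triangles for males, and bars for the mean and SD (n = 6). Gaa is the panel without overlap, its lowest Q140 animal at 259.5 CPM above its highest wild type at 251.

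Across the genes the same animals tended to be high or low. After centring each gene on its mean over the 12 animals, Q140 3 had the highest median over the 31 genes, 0.12 on the log2 scale, with 28 of 31 above the mean. Q140 5 had the lowest of its group, -0.0022, with 15 of 31 above. Among wild types, number 4 had the highest median, 0.017 (20 of 31 above), and wild types 3 and 6 were the lowest at -0.10 and -0.090. Wild type 4 held the highest wild type value for 20 of the 31 genes, and wild types 3 and 6 the lowest for 12 and 10. In the Q140 group, number 3 was highest for 12 genes and number 5 lowest for 10. Calls shifted when single animals were left out: 3 of the 31 passed without wild type 3 and without Q140 2, 4 without Q140 3, and 11 without wild type 4 and without Q140 5. The share of all genes that rose shifted in the same fits. It was 2.49% without wild type 3, 2.31% without Q140 2 and 2.64% without Q140 3. Without wild type 4 it was 5.3% and without Q140 5 it was 6.03%. Gaa, Ctss and Grn passed in each of the 12 fits that left out 1 animal, Scarb2 in 10, Ctsz in 9, Npc2 in 7 and Lamp1 in 2.

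**Figure D3:**
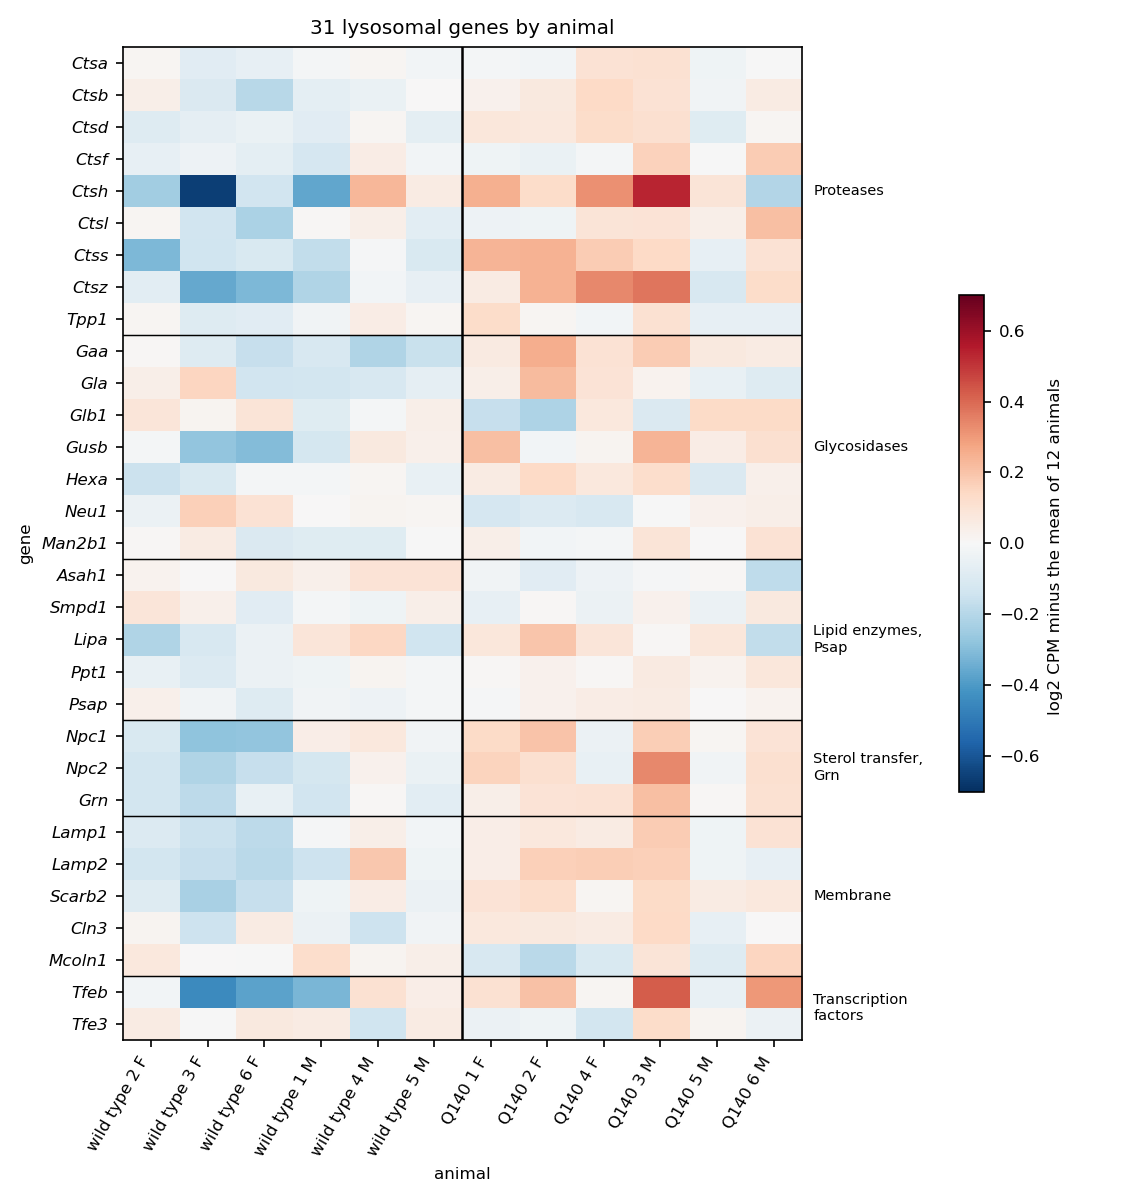
Log2 CPM of the 31 genes in each animal minus the gene's mean over 12 animals, with red above and blue below that mean, F for female and M for male. The column of Q140 3 is above the mean for 28 of 31 genes and that of wild type 6 for 5.

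The names of the animals begin with letters that the labels leave unexplained, and these prefixes are spread unevenly over the genotypes. Names with RFckQ belong to 4 wild types and 1 Q140 animal. Names with RFQ belong to 3 Q140 animals and 1 wild type, FMQ marks 1 wild type, and 2 Q140 animals have no prefix. FMQ and the names without a prefix each belong to a single genotype, so those animals do not inform the genotype contrast once the prefix is a term. It then rests on the RFQ and RFckQ animals, fewer than in the main comparison. With the prefix as a term, 26 of 31 fold changes were above 0 and their median was 0.084, but 0 passed after adjustment, and over all genes 134 did. Gaa then had a log2 fold change at 0.23 (SE 0.0688, adjusted p = 0.164), Ctsz at 0.34 (SE 0.130, adjusted p = 0.275), Ctss at 0.23 (SE 0.0806, adjusted p = 0.244) and Grn at 0.17 (SE 0.0634, adjusted p = 0.258). Those of Npc2, Lamp1 and Scarb2 were 0.12, 0.11 and 0.10. Within each prefix the log2 ratio of mean CPM, Q140 over wild type, has 1 animal on a side and so no test. Within RFQ, where all animals are males, that animal is wild type 4. It held the highest wild type value for 20 of the 31 genes and the lowest for Gaa. Within RFckQ it is Q140 4, a female, set against wild types of both sexes. Gaa gave 0.31 within RFQ and 0.19 within RFckQ, and Ctss 0.073 and 0.36. Ctsz gave 0.16 and 0.51, and Grn 0.10 and 0.23. Npc2 gave 0.12 and 0.074, Lamp1 0.045 and 0.12, and Scarb2 0.037 and 0.11. Ratios were above 0 for 26 of the 31 genes within RFQ, for 25 within RFckQ and for 21 in both.

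When the sexes were tested apart, 6 of the 31 rose in females and 0 in males. Those 6 were Ctss, Ctsz, Npc1, Lamp1, Lamp2 and Scarb2, where 2.83% of all genes rose and 4.21% fell, while in males 0.44% rose and 0.959% fell. By DESeq2, 10 rose and 1, Neu1, fell in females, and 1, Gaa, rose in males, where 688 of 16350 genes passed by DESeq2. The share of all genes that passed in females by DESeq2 is not given here. The female counts by DESeq2 therefore have no background beside them. Fold changes were above 0 for 25 of the 31 in females (median 0.16) and for 27 in males (median 0.076). The difference itself passed for 0 of the 31 and for 0 of all genes (25 of all genes by DESeq2), with 837 genes (4.72%) higher and 796 (4.49%) lower in the male effect at an unadjusted p of 0.05. So the calls in females alone do not show that the sexes differ. Each group of sex and genotype held 3 animals. Name prefixes also differ between these groups: all Q140 males are RFQ and no Q140 female is. Among Q140 animals, sex and prefix therefore cannot be told apart.

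Ctss had the smallest adjusted p in females, with 0.40 as log2 fold change (SE 0.0688, adjusted p = 0.00568) against 0.16 (SE 0.0693) in males. Npc1 was at 0.32 (SE 0.0709, adjusted p = 0.0186) in females and 0.064 (SE 0.0711) in males. Lamp2, which lies on the X chromosome, was at 0.29 (SE 0.0813, adjusted p = 0.0499) and 0.020 (SE 0.0818). For these 3 genes and for Neu1 and Lipa the difference had an unadjusted p between 0.0228 and 0.0394, and adjusted values between 0.486 and 0.521. Gaa had much the same fold change in both sexes, 0.22 (SE 0.0638) in females and 0.26 (SE 0.0640) in males, and passed in neither (adjusted p = 0.0568 and 0.0661). Neu1 was at -0.19 (SE 0.0534, adjusted p = 0.0534) in females and 0.0098 (SE 0.0539) in males. In females it passed as lower under 5 of 22 alternatives, with adjusted p from 0.0171 to 0.768. Glb1, Mcoln1, Tfe3 and Smpd1 lay between -0.16 and -0.045 in females and between -0.013 and 0.076 in males. Female calls rest on few animals. Wild types 3 and 6 are females and had the lowest medians over the 31 genes. Without both, wild type 2 is the only wild type female left, so only fold changes are given for that fit. In females the log2 fold change was then 0.53 for Ctss, 0.21 for Npc1 and 0.26 for Lamp2. Leaving out wild type 3, wild type 6 or Q140 2 alone left 1, Ctss, while 2 passed without Q140 1 and 3 without Q140 4. Over all genes the count in females changed too. It was 433 without wild type 3, 678 without wild type 6 and 228 without Q140 2.

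**Figure D4:**
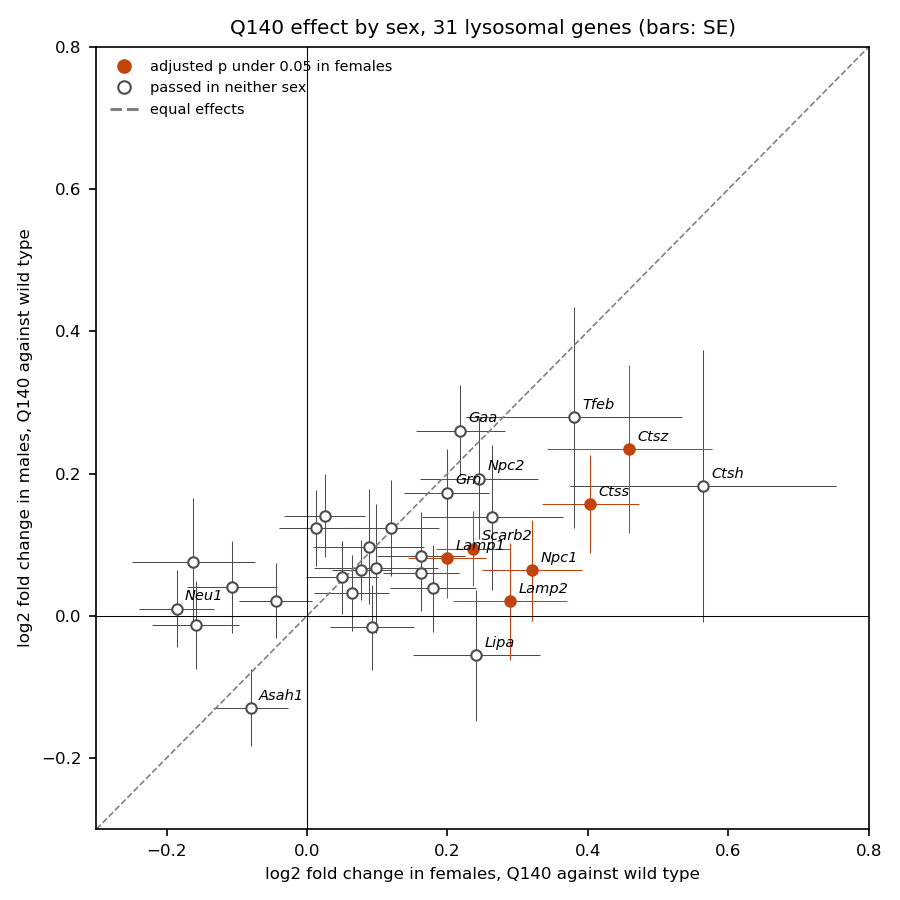
Log2 fold change of Q140 against wild type in females (x axis) and males (y axis) for the 31 genes, with bars for the SE and a dashed line for equal effects. The 6 filled points passed in females and lie right of the dashed line; none passed in males.

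Between males and females, with genotype as a covariate, none of the 31 genes differed after adjustment, where 0.197% of all genes were higher and 0.457% lower in males. At an unadjusted p of 0.05, where 6.95% of all genes were higher and 6.52% lower in males, Ctsl (log2 fold change 0.10, male over female) and Mcoln1 (0.11) were higher in males and Gla (-0.14), which lies on the X chromosome, was lower. Fold changes were above 0 for 26 of the 31, with a median of 0.033. The remaining X-linked genes, Lamp2 and Tfe3, were at 0.033 and 0.029.

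Further lysosomal hydrolases and membrane genes also held some that rose and none that fell. In the same test 4.5% of all genes rose and 6.69% fell. Of 29 further hydrolases, 3 rose and 0 fell: Sgsh, which removes sulfate from heparan sulfate, from 7.23 ± 0.663 to 9.08 ± 0.657 CPM (log2 fold change 0.33, adjusted p = 0.00594), Fuca1, a fucosidase (0.23, adjusted p = 0.0311), and Lgmn, the asparaginyl protease that trims cathepsins (0.13, adjusted p = 0.0468). The median over the 29 was 0.049. Of 26 further membrane genes, 3 rose and 0 fell: the lipid transporter gene Abca2 (0.21, adjusted p = 0.0235), Tmem192 (0.20, adjusted p = 0.0399) and Laptm4a (0.23, adjusted p = 0.0478), with a list median of 0.056. Sgsh passed in 12 of the 12 fits that left out 1 animal and Abca2 in 10, but Fuca1 in 5 and Lgmn, Tmem192 and Laptm4a in 3 each.

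Genes that acidify, supply and regulate the lysosome showed no common direction. At most 1 gene rose and 1 fell in each list, near the shares over all genes, of which 4.5% rose and 6.69% fell. Among 18 genes of the V-ATPase, the proton pump that acidifies it, 1 rose, the accessory subunit Atp6ap1 (0.12, adjusted p = 0.0361), 0 fell and the median was -0.030. In the list of 17 genes that sort enzymes to the lysosome, M6pr, the cation-dependent mannose 6-phosphate receptor, rose from 76.7 ± 3.40 to 84.7 ± 2.71 CPM (0.14, adjusted p = 0.0298). Sort1, for sortilin, a receptor that also delivers prosaposin and progranulin, fell from 627 ± 12.0 to 544 ± 28.6 CPM without overlap (-0.21, adjusted p = 0.00523; 2.71% of all genes were separated in that direction). Of 18 genes of mTORC1 and its control of TFEB, Lamtor5 rose (0.15, adjusted p = 0.04995, just under the threshold). Rragd, a Rag GTPase that recruits mTORC1 and TFEB to the lysosome, fell from 197 ± 15.8 to 154 ± 14.2 CPM without overlap (-0.36, adjusted p = 0.00224). In the other direction, 1 gene each of the further membrane, V-ATPase and sorting lists was separated with Q140 higher, as were 1.88% of all genes. Sort1 and Rragd passed in all 12 fits that left out 1 animal, M6pr in 5, Atp6ap1 in 3 and Lamtor5 in 2. With the name prefix as a term, 0 of the 11 genes named from these lists passed (adjusted p from 0.096 to 0.509).

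**Figure D5:**
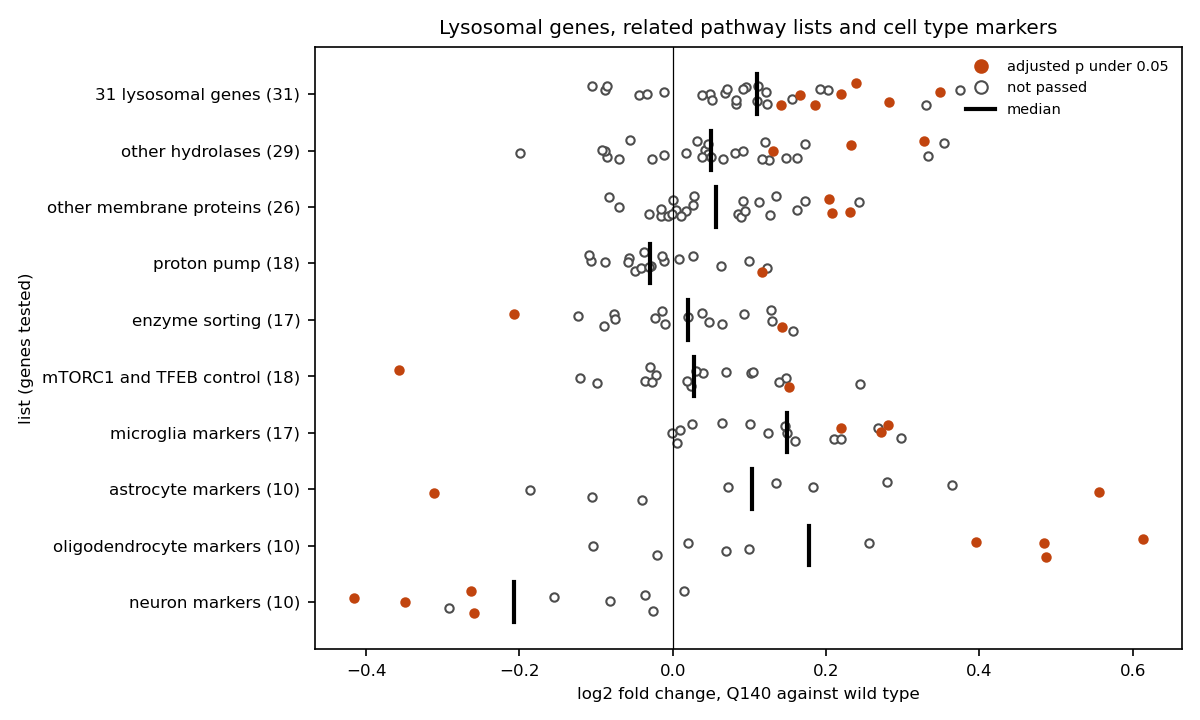
Log2 fold change of Q140 against wild type for each tested gene of the 31, of 5 related pathway lists and of 4 cell type marker lists, with red for an adjusted p under 0.05 and a black bar for the list median. The median of the 31 is 0.11 and that of the V-ATPase list -0.030.

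Some markers of other cell types passed the genotype test, but none of the 10 marker lists did as a mean (lowest adjusted p = 0.179, exact permutation). Over all genes 4.5% rose and 6.69% fell in the genotype test. Of 17 tested microglial markers, 3 rose (Tmem119, Tyrobp and Sall1, at 0.27, 0.28 and 0.22) and 0 fell, with a median of 0.15. Fold changes were above 0 in 16 of the 17. At an unadjusted p of 0.05, 7 were higher (12.3% of all genes) and 0 lower (14.3%). No microglial marker was at 0 in all animals, and their summed level ran from 446 to 545 CPM in wild types and from 484 to 595 in Q140. The defining microglial genes Cx3cr1 (-0.0011, SE 0.0667), the only one of the 17 below 0, and P2ry12 (0.064, SE 0.0856) did not pass. The mean of the microglial list, on the centred log2 scale, was higher by 0.15 in Q140 (exact permutation p = 0.0693, adjusted over 10 marker lists 0.179). Of 10 oligodendrocyte markers 4 rose, led by Mog (0.61) and Mag (0.49), and 0 fell. Fold changes of this list were above 0 in 8 and below 0 in 2, with a median of 0.18. Its sum ran from 3660 to 5171 CPM in wild types and from 4137 to 5902 in Q140. Of 10 neuronal markers 4 fell, led by Camk2a (-0.42) and Snap25 (-0.35), 0 rose, and the sums did not overlap, 10561 to 11686 CPM in wild types and 8199 to 9696 in Q140. Their list mean, in which each gene weighs the same, did overlap and differed by -0.18, Q140 minus wild type (exact permutation p = 0.0260, adjusted 0.179). Of 7 markers of cortical excitatory neurons 1 fell, Slc17a7 (-0.34, adjusted p = 0.00330), and all 7 had fold changes below 0, with a median of -0.19. Their sums did not overlap either, at 2071 to 2396 CPM in wild types and 1609 to 1985 in Q140, while the list mean differed by -0.21 (exact permutation p = 0.136, adjusted 0.227). Of 10 astrocyte markers 1 rose, S100b (0.56), and 1 fell, Slc1a2 (-0.31). Mog, Mag, Camk2a, Snap25 and S100b passed in all 12 fits that left out 1 animal. Sall1 passed in 8, Slc1a2 in 7 and Tmem119 and Tyrobp in 4 each. With the name prefix as a term, none of these markers passed, with adjusted p from 0.0506 (Camk2a) to 0.508 (Sall1).

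For markers of tissue at the cortical surface, 3 of the animals named above stood at the ends. The mean of 9 meningeal markers was -2.19 in wild type 3, the lowest animal, 1.14 in wild type 4 and 1.14 in Q140 3, and their sum ran from 56.5 to 419 CPM in wild types and from 182 to 446 in Q140. Of these 9 markers 0 passed either way. Markers of border macrophages and monocytes, 6 tested of 8, passed in 0 of 6 with a median of 0.59, and their sum ran from 4.39 to 29.9 CPM in wild types and from 15.0 to 33.4 in Q140. Vessel markers rose in 1 of 9 (Ly6c1, 0.33), where 4.5% of all genes rose. Their sum was 356 to 553 CPM in wild types and 442 to 558 in Q140. Choroid plexus markers passed in 0 of 4 and striatal ones in 0 of 6. Wild type 6 had the lowest mean of the 6 striatal markers, -2.15, where the other wild types lay at -0.55 or above, and the lowest of the oligodendrocyte markers, -0.47. The striatal sum ran from 247 to 1104 CPM in wild types and from 425 to 749 in Q140. The part of any of these cells in the values of the lysosomal genes was not tested.

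Counting could touch some of the genes. In GENCODE M21, 11 of the 31 share exonic bases with another gene of the table, 9 of them with a gene on the opposite strand. Libraries were made with a stranded kit, but whether the counting used strand is not given in the sources used here; such reads cannot be told apart. Among the 7 that rose, Lamp1 shares 9.31% of its exonic bases with Grtp1, Grn 68 bases with Fam171a2 and Ctsz 10 with Nelfcd, while Gaa, Ctss, Npc2 and Scarb2 share none.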

How the data were processed

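Per the labels' protocols, a Qiagen RNeasy kit was used for the RNA and the Illumina TruSeq stranded protocol for the libraries, all of plate 1. The deposited count table holds whole reads per gene, not normalized. HTSeq 0.12.3, STAR 2.7.5c and SAMtools 1.10, with GRCm38 and mm10, stand in the submitters' processing notes, and the annotation release is not given in the sources used here. The deposited FPKM values are the same counts divided by gene length and column total, as checked on 16285 genes. The 31 genes and all gene lists were chosen with earlier results of these data known. Of the hydrolase list, 1 gene is not reported here.

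Genes were tested on counts in R 4.3.3 by edgeR 4.0.16 (TMM factors, default filter by genotype, quasi-likelihood test, two-sided, Benjamini-Hochberg adjustment over 17725 genes) with sex as a covariate. Contrasts by sex came from a model of the 4 groups, and the sex comparison had genotype as its covariate. List means of log2 CPM (prior count 2) were compared by exact permutation of the 12 animals. In simulated counts with 200 changed genes, the genotype comparison recovered 59.8%, 75.0% and 98.3% of changes of 1.25, 1.5 and 2 times, with 8 of 159 calls false over 17552 genes. These counts were drawn for each gene on its own, with no effect of an animal or name prefix shared across genes. Changes under 1.25 times were not simulated, and of the lysosomal genes that passed only Ctsz rose by more than that. Named beside the 31 were Htt, the pathway genes that passed (at most 5 a list) and up to 3 markers a list by smallest p; Slc17a7, Cx3cr1 and P2ry12 were singled out as defining markers. Coordinates come from GENCODE M21, which held 48349 of the 48795 identifiers. Alternatives were other size factors and filters, DESeq2 1.42.0, limma 3.58.1 (voom, and log2 FPKM with pseudocounts of 0.1 and 1), gene length offsets, no sex term, name prefixes and numbers as terms, and animals left out.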

Additional observations from a re-analysis of the deposited data

Results flagged for a closer look

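Each group of 6 animals was checked for a value far from the rest, for the 31 genes, Htt and the named genes of the related lists, 108 groups in all, of which 1 held one. Chance alone flags about 1 group in 20. None of the 62 groups of the 31 lysosomal genes held such a value, and none of the marker list means did. Htt in wild type 4 was 180 CPM, while the other wild types lay between 197 and 203.8. Wild type 4 was also the wild type with the highest values for 20 of the 31 lysosomal genes.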

How the results depend on the processing

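Of the 31 genes, 7 rose in the comparison as reported, and the count was 7 with RLE size factors and with a minimum of 1 CPM, 8 with upper quartile factors and with length offsets, 9 with no filter, 10 with DESeq2 and 6 without the sex term. It was 11 with voom and 13 by limma on FPKM with either pseudocount, where unit, test and filter differ at once. It was 2 without wild types 3 and 6 together, and 0 with the name prefix as a term and with the 5 animals of numbers 150 and 161 fitted with the number as a term. Leaving out 1 animal gave 3 to 11. Over all genes, 797 rose and 1185 fell. On FPKM values 1366 and 661 did with a pseudocount of 0.1, and 1363 and 656 with a pseudocount of 1. With DESeq2 the counts were 996 and 1470, and with voom 1062 and 1435. Without wild types 3 and 6 they were 300 and 562, with the prefix 33 and 101, with the number 1 and 0, and without 1 animal 412 to 1074 and 727 to 1430. In females, 6 of the 31 passed, against 11 with DESeq2 and 14 with voom (each with Neu1 as 1 that fell) and 1 to 9 without 1 animal. Over all genes in females, 502 rose and 747 fell, while 2716 passed with voom and 228 without Q140 2. In males, 0 of the 31 passed, and 1 with no filter, DESeq2, voom and both FPKM pseudocounts. Over all genes in males, 78 rose and 170 fell, while 576 passed with no filter, 688 with DESeq2 and 854 with voom. The causes were not tested. Fold changes near 0 changed sign: Tpp1 to -0.000507 without wild types 3 and 6 together and -0.020 with the prefix; Glb1 to 0.0005028 and 0.00108 on FPKM values, 0.045 with the prefix and 0.049 with the number; Smpd1 to 0.036 and 0.035 on FPKM values and, without 1 animal, from -0.028 to 0.0076. Tfe3 changed to 0.014 and 0.012 on FPKM values, 0.0056 with length offsets, 0.017 with the prefix and 0.072 with the number. The mean of the striatal markers, 0.037 higher in Q140, ranged from -0.39 to 0.27 without 1 animal. That of the oligodendrocyte markers, 0.23, ranged from 0.16 to 0.29 and passed only without Q140 5 (exact permutation, adjusted p = 0.0433). No paired analysis was possible over all 12 animals because the genotypes share name numbers, 150 and 161, in only 5 of them; the fit of those 5 with the number as a term is the one given above. Each sex and genotype had 3 animals, which limits what the sex contrasts can show.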
